A study of Mus musculus with 36 samples.

Results

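Cytochrome P450 enzymes of families 1 to 3 were followed in the kidneys of mice on 5 diets. The members are all probe sets with a single gene symbol of the form Cyp1, Cyp2 or Cyp3 followed by a subfamily letter and a number, which gave 45 probe sets of 38 genes among the 45141 probe sets and 17097 singly annotated genes of the array. The rule uses their names alone and not their signal, though it was set with earlier results of these data known.

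The study fed diets for a short time before renal ischemia, to learn which of them protect the kidney, and measured kidney RNA with 1 array per mouse. All mice were male C57BL/6 animals of 10 to 12 weeks that had first eaten the standard SDS chow for 7 days. In the fasting cohort, 4 mice went without food for 3 days (3-day fasting) and 5 mice had free access to SDS chow. In the other cohort, 5 mice ate 30% less than ad libitum, given once daily, for 2 weeks (30%DR) and 3 mice had free access to SDS chow, while for 3 days 5 mice ate a protein-free diet, 5 a carbohydrate-free diet (CHO-free), 4 a fat-free diet and 5 the purified Control diet. The 3 purified diets share the Control mice. SDS mice were placed in a cohort by the prefix of their animal number. The arrays read whole kidney, so that fewer cells of a type and less RNA per cell cannot be told apart.

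P450 enzymes are haem proteins of the endoplasmic reticulum that put an oxygen atom into lipophilic substrates with electrons passed on by P450 reductase and cytochrome b5. Families 1 to 3 are best known for drug and steroid oxidation in the liver. The kidney holds its own set, mostly in the proximal tubule, and its Cyp2c and Cyp2j enzymes oxidise arachidonic acid to epoxides and hydroxylated products that act on tubular transport and vascular tone.

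Values are log2 signals after RMA, where a difference of 1 is a doubling. Levels of different probe sets cannot be set against each other as amounts of RNA. A probe set was called where its change was at least 1.5-fold and its Benjamini-Hochberg adjusted p, taken across the whole array of 45141 probe sets with limma, was below 5%. Array medians ran from 4.15 to 4.21 in the fasting cohort and from 3.62 to 3.76 in the other, and as the cohorts were normalized apart, levels are compared only within one. Kidney markers stood high on all arrays, with Umod of the thick ascending limb between 12.7 and 13.2. The adrenal markers Cyp11a1 and Cyp11b1 stayed between 2.58 and 3.49, and liver and fat markers varied between mice.

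The members split by signal. This split is a rough one, as it sets different probe sets side by side, and a dim probe set need not mean an absent transcript. The 23 control probe sets of nonspecific sequence averaged up to 4.56 in the fasting cohort and up to 4.44 in the other. Above the highest of these, in at least 1 cohort, lay 16 member probe sets of 12 genes, namely Cyp1b1, Cyp2a5, Cyp2c23, Cyp2d9, Cyp2d22, Cyp2d26, Cyp2e1, Cyp2j5, Cyp2j6, Cyp2j9, Cyp2j13 and Cyp3a11. All 4 Cyp2j genes on the array were among them. The other 29 probe sets are 1 further probe set of Cyp1b1 and those of 26 genes with no brighter probe set, and 0 of them was called in any diet.

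Changes concentrated in 6 genes. The Cyp2d genes Cyp2d22, Cyp2d9 and Cyp2d26 were higher after 3-day fasting, and Cyp2d26 was lower on the CHO-free diet. After 30%DR and on the protein-free diet Cyp2d9 was higher too, as was Cyp2d22 at 1 of its 2 probe sets. On the CHO-free diet that Cyp2d22 probe set passed the false discovery rate but stayed below 1.5-fold. Of the arachidonic acid enzymes, Cyp2j9 was higher after fasting, Cyp2c23 was higher after 30%DR, and Cyp2j13 was lower after fasting and on the CHO-free diet. Fasting raised 5 member probe sets and lowered 1 of 45, where 2.63% and 2.68% of all probe sets rose and fell. 30%DR raised 3 and lowered 0, against 0.47% and 0.45% of all probe sets. The protein-free diet raised 2 and lowered 0, against 0.45% and 0.288%. The CHO-free diet raised 0 and lowered 2, against 1.35% and 2.25% of all probe sets. The median log2 fold change of the 45 members stayed small, at 0.03 after fasting, 0.01 after 30%DR, 0.06 on the protein-free and 0.05 on the CHO-free diet, where the medians over all probe sets were 0.00, 0.00, 0.01 and 0.03.

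The upstream sequence of 4 of these genes is shown because their responses differ, with 2 genes of the Cyp2d cluster of which Cyp2d26 alone was called on the CHO-free diet and 2 Cyp2j genes that moved in opposite directions after fasting. The promoter table from RefSeq holds 32 of the 38 member genes, and Cyp2d22 and Cyp2c23 have no entry in it. Each sequence runs from 150 bases to 1 base before the annotated start, 5′ to 3′ on the gene's strand, in build GRCm38.p6. Capitals mark matches on either strand to an HNF4-type site (CAAAGNNCA), to an HNF1 half-site (GTTAAT) and to a FOXO site (GTAAACA).
Cyp2d9 (chr15:82452227-82452376, plus strand): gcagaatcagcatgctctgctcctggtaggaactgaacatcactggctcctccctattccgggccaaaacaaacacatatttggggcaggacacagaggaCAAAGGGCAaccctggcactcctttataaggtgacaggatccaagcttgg
Cyp2d26 (chr15:82794246-82794395, minus strand): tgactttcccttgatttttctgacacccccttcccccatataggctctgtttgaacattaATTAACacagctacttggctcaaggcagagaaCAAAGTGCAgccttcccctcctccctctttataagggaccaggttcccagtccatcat
Cyp2j9 (chr4:96591486-96591635, minus strand): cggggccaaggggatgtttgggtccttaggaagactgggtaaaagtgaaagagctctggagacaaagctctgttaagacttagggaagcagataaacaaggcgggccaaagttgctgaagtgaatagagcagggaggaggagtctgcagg
Cyp2j13 (chr4:96077541-96077690, minus strand): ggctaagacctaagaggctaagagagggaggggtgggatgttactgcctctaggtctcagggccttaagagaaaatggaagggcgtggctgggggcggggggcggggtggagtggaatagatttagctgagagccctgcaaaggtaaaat

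Both Cyp2d promoters held the HNF4-type letters, beginning 50 bases before the start in Cyp2d9 and 58 bases before it in Cyp2d26, and Cyp2d26 held the HNF1 half-site 90 bases before it. The 2 Cyp2j windows held none of the 3 motifs. In the 250 bases before the start, 12 of the 32 member genes held the HNF4-type letters, 2 the HNF1 half-site and 7 the FOXO site, against 5.47%, 6.52% and 3.09% of the 27025 promoters searched. Members of a subfamily are close relatives and can share such letters by descent, and a match is a description of the sequence, not of binding. Hnf4a itself, whose product binds the first of these sites, had log2 fold changes between -0.09 and 0.10 in the 6 comparisons.

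Cyp2d22 is counted as the mouse counterpart of human CYP2D6, a major drug-oxidising enzyme. After 3-day fasting its signal at probe set 1419040_PM_at was 8.54, 8.59, 8.56 and 8.73 in the 4 fasted mice, against 6.10, 6.16, 6.06, 6.12 and 6.10 in the 5 SDS mice. The groups did not overlap and each was tight, so the change of 5.66-fold (log2 fold change 2.50, SE 0.06, adjusted p = 1.43e-09, limma) was many times the spread. The other Cyp2d22 probe set gave 2.53 (SE 0.10, adjusted p = 1.21e-07, limma), and these were the 2 highest changes among the 45 members.

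On the other diets the changes of 1419040_PM_at were smaller, and the difference was tested against the CHO-free diet only. It read 6.92, 6.50, 6.81, 6.35 and 6.63 after 30%DR, against 6.20, 6.07 and 5.86 in its SDS controls, without overlap (log2 fold change 0.60, SE 0.13, adjusted p = 0.0186, limma). This call was lost without SDS replicate 2 or 3 and without 30%DR replicate 1 or 3, with an adjusted p of up to 0.149. It held in 6 of 11 other settings and was lost with limma's treat at 1.2-fold, with array weights, with a covariate for the 3′ to 5′ Gapdh difference (a sign of RNA integrity) or for adipocyte markers, and in a fit of the 2 groups alone, where the log2 fold change was between 0.56 and 0.63. On the protein-free diet it was 6.77, 6.41, 6.49, 6.47 and 6.29, against 6.10, 5.78, 5.87, 5.48 and 5.86 on the Control diet, again without overlap (0.67, SE 0.12, adjusted p = 0.00185, limma). Without Control replicate 4 it stayed just under 1.5-fold (0.58). On the CHO-free diet it was 6.29, 5.95, 6.02, 6.29 and 6.39, which overlapped the Control mice. There the log2 fold change of 0.37 had an adjusted p of 0.0409 with limma but stayed below 1.5-fold. The fat-free mice lay between 5.72 and 5.83, inside the range of the Control mice. The other Cyp2d22 probe set, 1419039_PM_at, was called on none of these diets. After 30%DR it ran from 4.98 to 5.42, above the 4.65 to 4.80 of SDS mice. Protein-free mice (5.14 to 5.64) overlapped Control mice (4.43 to 5.36) there.

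Cyp2d9 hydroxylates testosterone and is a male-predominant enzyme of mouse liver and kidney. The fasted mice had 11.15, 11.18, 10.92 and 11.26, against 10.01, 10.14, 10.05, 10.10 and 10.17 in SDS mice, a change of 2.05-fold (log2 fold change 1.03, SE 0.07, adjusted p = 4.52e-06, limma). After 30%DR the signals were 9.50, 9.86, 9.65, 9.66 and 10.42, against 8.95, 8.77 and 9.15 in SDS mice (0.86, SE 0.17, adjusted p = 0.00737, limma, and 0.0825 without SDS replicate 2). Protein-free mice had 9.76, 10.17, 9.96, 9.99 and 10.06, against 9.17, 9.27, 9.19, 8.80 and 9.001 in Control mice (0.90, SE 0.15, adjusted p = 0.000904, limma). In none of these 3 comparisons did the groups overlap. The CHO-free signals of 9.40, 9.06, 9.39, 9.28 and 8.83 overlapped the Control mice, with a log2 fold change of 0.11 and a 95% interval from -0.20 to 0.41. On the fat-free diet the log2 fold change was -0.20, with an interval from -0.52 to 0.12. The Cyp2d genes are near relatives, and whether its probes also catch other Cyp2d transcripts was not tested.

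Cyp2d26 lies at the far end of the same cluster on chromosome 15, where Cyp2d22 is the second and Cyp2d26 the last of 19 annotated genes and pseudogenes. After fasting it read 10.35, 10.27, 9.92 and 9.88, against 9.76, 9.31, 9.56, 8.75 and 9.69 in SDS mice, without overlap (log2 fold change 0.69, SE 0.19, adjusted p = 0.0246, limma). This call was lost on leaving out any of 4 single arrays (SDS replicates 2 and 4, fasted replicates 1 and 2), with an adjusted p of up to 0.0697. It was also lost with limma's treat at 1.2-fold (adjusted p = 0.287). On the CHO-free diet it read 9.10, 8.69, 8.03, 8.79 and 8.22, against 9.52, 9.49, 9.98, 9.41 and 9.18 on the Control diet, so that every CHO-free mouse lay below every Control mouse (-0.95, SE 0.19, adjusted p = 0.00223, limma). That call held without any single array, but was lost with treat at 1.2-fold and with the Gapdh covariate (-0.64). The log2 fold changes after 30%DR (0.50, adjusted p = 0.341, limma), on the protein-free diet (0.38, adjusted p = 0.421, limma) and on the fat-free diet (-0.43, adjusted p = 0.998, limma) did not pass. Of these, only the 30%DR mice (9.81 to 10.48) did not overlap their controls (9.28 to 9.76).

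**Figure D1:**
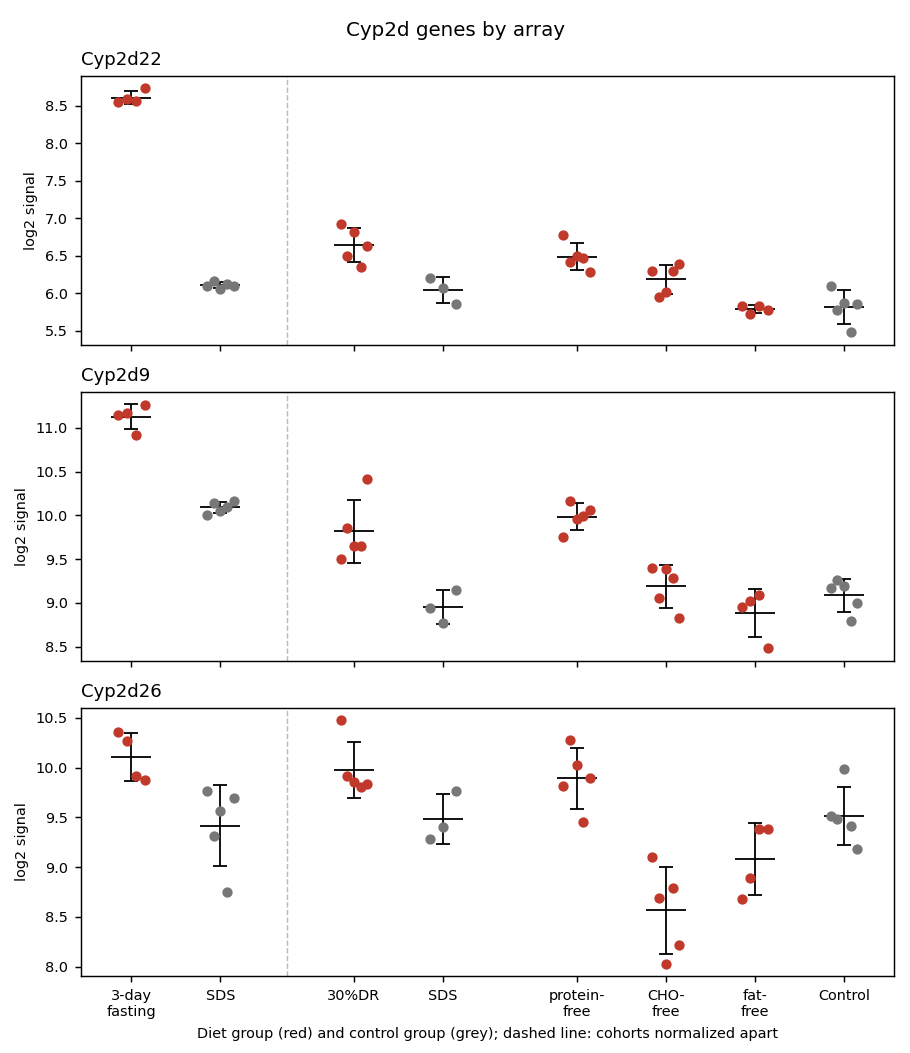
Log2 signal (vertical axis) of Cyp2d22, Cyp2d9 and Cyp2d26 on each array, by diet group (red) and control group (grey), with the mean and SD as black bars and a dashed line between the cohorts normalized apart. All 4 fasted mice lie between 8.54 and 8.73 for Cyp2d22, above SDS mice between 6.06 and 6.16, and for Cyp2d26 the 5 CHO-free mice (8.03 to 9.10) lie below all 5 Control mice (9.18 to 9.98).

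Whether the diets differed from the CHO-free diet was tested directly. In protein-free against CHO-free mice, Cyp2d26 differed by 1.33 (SE 0.19, adjusted p = 5.93e-05, limma) and Cyp2d9 by 0.80 (SE 0.15, adjusted p = 0.000915, limma), both higher on the protein-free diet. These were 2 of 45 members, where 1.34% of all probe sets were higher, and Cyp2d22 was not among them. The fasting effect exceeded the CHO-free effect at 5 member probe sets, against 1.42% of all probe sets, with differences of 2.34 and 2.13 for Cyp2d22, 1.64 for Cyp2d26, 0.93 for Cyp2d9 and 0.71 for Cyp2j9, at adjusted p between 2.92e-11 and 0.0265 (limma). The call of Cyp2j9 was lost without any of 6 single arrays (SDS replicate 1, fasted replicates 2 and 4, Control replicates 1 and 2, and CHO-free replicate 4), with an adjusted p of up to 0.0624. The 30%DR effect exceeded it for Cyp2d26 alone (1.45, SE 0.29, adjusted p = 0.0128, limma), against 0.253% of all probe sets. That difference did not pass without SDS replicate 1 or SDS replicate 2, at an adjusted p of up to 0.0569. For Cyp2d9 it was 0.76 with an adjusted p of 0.134 (limma), and the 95% interval ran from 0.30 to 1.22. As fasting and the CHO-free diet were measured in different cohorts, the cohort enters each difference that involves fasting.

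Cyp2j9 was described in mouse brain as an enzyme that hydroxylates arachidonic acid. Its signal was 7.72, 7.96, 7.93 and 8.01 in fasted mice, against 6.66, 6.83, 6.73, 6.93 and 6.88 in SDS mice, with no overlap (log2 fold change 1.10, SE 0.08, adjusted p = 4.25e-06, limma). After 30%DR it was 6.98, 7.16, 6.82, 7.08 and 7.05, against 6.37, 6.68 and 6.25 in SDS mice. These groups did not overlap either, but the change of 0.58 had an adjusted p of 0.0756 (limma). The protein-free, CHO-free and fat-free diets gave log2 fold changes of 0.32, 0.39 and 0.09, none of which passed.

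Cyp2j13 belongs to the same gene cluster on chromosome 4, at its other end, and moved the other way. Fasted mice had 9.21, 8.62, 9.03 and 8.31, against 9.86, 10.40, 10.19, 9.88 and 10.23 in SDS mice (-1.32, SE 0.17, adjusted p = 0.00031, limma). The CHO-free signals were 9.13, 9.56, 8.86, 8.75 and 8.92, against 9.74, 10.10, 9.91, 9.96 and 9.75 on the Control diet (-0.84, SE 0.13, adjusted p = 0.00012, limma). In both comparisons all diet mice lay below all controls. The values after 30%DR (-0.39) and on the protein-free diet (-0.38) had adjusted p of 0.227 and 0.141 (limma), and on the fat-free diet the value was -0.25. After 30%DR (8.93 to 9.31 against 9.33 to 9.67) and on the protein-free diet (9.25 to 9.71 against 9.74 to 10.10) all mice still lay below their controls. How many of all probe sets separate in this way was not counted. The genes on either side of Cyp2j9 moved less. Cyp2j5, an abundant renal epoxygenase, changed by -0.30 after fasting and -0.42 on the CHO-free diet at its dimmer probe set, below 1.5-fold, and by -0.05 and -0.16 at its brighter one. Cyp2j6 did not pass at either of its 2 probe sets, with log2 fold changes between -0.55 and 0.30 over the 5 diets.

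Cyp2c23, listed in other annotations as Cyp2c44, makes epoxides of arachidonic acid in the kidney. After 30%DR it read 8.39, 8.53, 7.98, 7.89 and 8.37, against 7.40, 7.36 and 7.68 in SDS mice (0.75, SE 0.19, adjusted p = 0.0356, limma). The groups did not overlap, but the call was lost on leaving out any of 6 of the 8 arrays (SDS replicates 1, 2 and 3, and 30%DR replicates 1, 2 and 5), with an adjusted p of up to 0.209. On the protein-free diet the signals of 8.15, 8.21, 7.89, 7.60 and 7.84 overlapped the 7.62, 7.46, 7.76, 6.79 and 7.05 of the Control mice, and the change of 0.60 had an adjusted p of 0.051 (limma). Fasting gave 0.38 and the CHO-free diet 0.40, with adjusted p of 0.0874 and 0.114 (limma). The suffix of its probe set marks one whose probes can match transcripts of more than 1 gene, as does that of Cyp2a5.

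**Figure D2:**
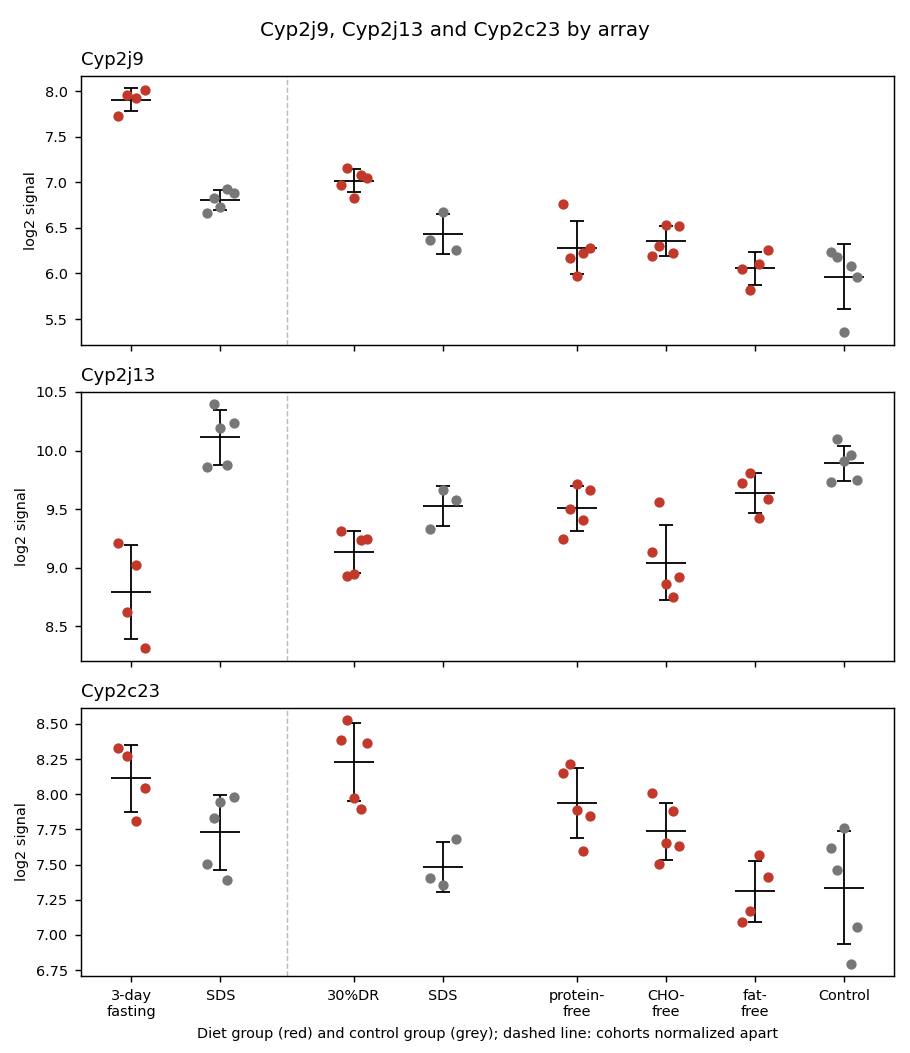
Log2 signal (vertical axis) of Cyp2j9, Cyp2j13 and Cyp2c23 on each array, by diet group (red) and control group (grey), with the mean and SD as black bars and a dashed line between the cohorts normalized apart. Fasted mice are above SDS mice for Cyp2j9 (7.72 to 8.01 against 6.66 to 6.93) and below them for Cyp2j13 (8.31 to 9.21 against 9.86 to 10.40).

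The remaining bright members moved little. Cyp2a5, which hydroxylates coumarin, passed the false discovery rate but not the 1.5-fold minimum after fasting (0.53), on the protein-free diet (0.45) and on the CHO-free diet (0.30), and its diet mice lay above their controls without overlap in each of these, as after 30%DR (0.39, adjusted p = 0.0558, limma). Cyp1b1, which oxidises estradiol and polycyclic aromatics, had 0.37 after fasting at its brightest probe set (adjusted p = 0.0249, limma), below 1.5-fold. Its other probe set above the nonspecific signal in that cohort showed no rise, with means of 5.04 in fasted and 5.09 in SDS mice. Cyp2e1, which oxidises ethanol, acetone and fatty acids, was among the brightest members and changed by at most 0.12 on any diet. After fasting its 95% interval ran from -0.03 to 0.28, so that a rise of 1.5-fold lay outside it.

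**Figure D3:**
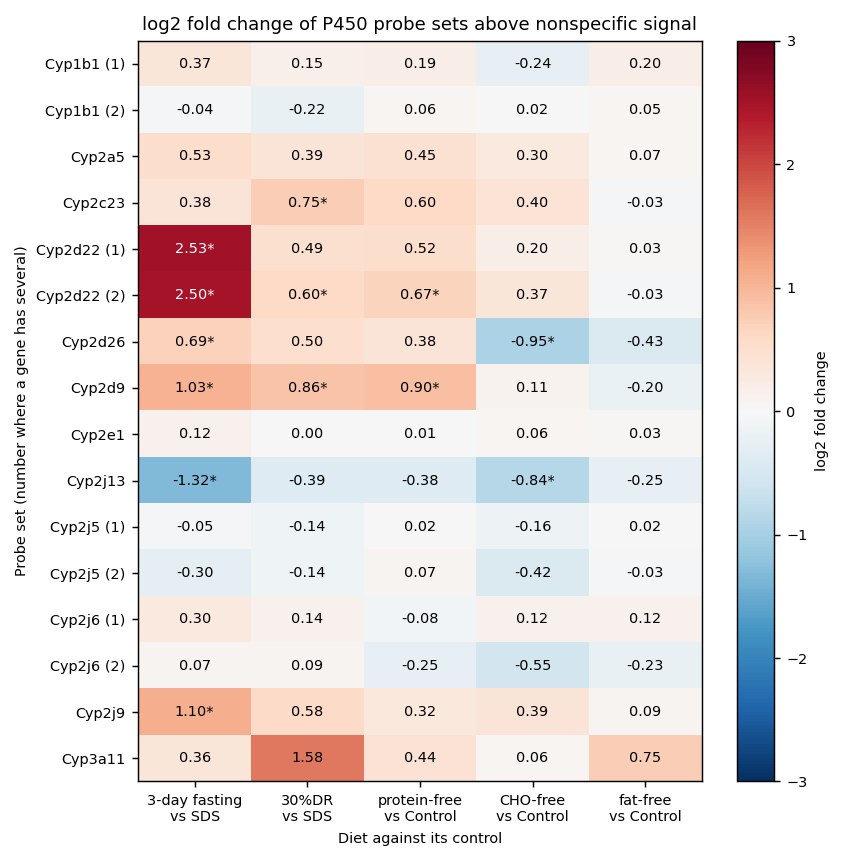
Log2 fold change (colour and number) of the 16 member probe sets above the nonspecific signal (rows) for each of the 5 diets against its control (columns), where an asterisk marks a called probe set. The rise of Cyp2d22 after fasting (2.53 and 2.50) and the falls of Cyp2j13 (-1.32 after fasting) and Cyp2d26 (-0.95 on the CHO-free diet) stand out.

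Cyp3a11, the chief drug-oxidising Cyp3a enzyme of mouse liver and gut, differed widely between mice of 1 group. It was 8.70, 6.53, 6.28 and 3.94 in fasted mice, against 7.27, 3.50, 6.72, 5.97 and 6.57 in SDS mice, so that both groups held dim and bright mice (0.36, SE 0.89, adjusted p = 0.854, limma). After 30%DR it was 6.04, 4.52, 5.63, 3.38 and 3.90, against 3.32, 2.99 and 3.03 in SDS mice. Although these groups did not overlap, the change of 1.58 (SE 0.67) had an adjusted p of 0.302 (limma). In this cohort Cyp3a11 averaged 3.88, not above the highest nonspecific mean of 4.44, and all 3 SDS mice lay below that mean, so the size of the change is uncertain. Fat-free mice had 6.52, 3.72, 2.74 and 3.98, against 2.98, 3.82, 2.92, 2.86 and 4.87 in Control mice.

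The mice that were high for Cyp3a11 were high for Alb, the serum albumin gene of hepatocytes. A high Alb did not always go with a bright Cyp3a11. The highest Alb of the other cohort (9.60) was in a CHO-free mouse, and Cyp3a11 ran from 3.03 to 4.23 in CHO-free mice. Once each group's mean was taken off, Cyp3a11 and Alb gave r = 0.91 and rho = 0.80 over the 9 arrays of the fasting cohort (exact permutation p = 0.00729 and 0.0219, adjusted 0.0664 and 0.129) and r = 0.85 and rho = 0.85 over the 27 others (permutation p = 1e-05 for both, the smallest that 100000 permutations can give, adjusted 0.0009). Without the 2 arrays farthest in Alb, r was 0.68 and 0.85. The pair was chosen after its values were seen, and the adjustment covers 90 relations, 45 members in each cohort. For Cyp2c50, r was 0.92 in the fasting cohort (adjusted exact permutation p = 0.025) and 0.79 in the other (adjusted permutation p = 0.0099), with rho of 0.93 and 0.80, and r of 0.88 and 0.80 without the 2 farthest arrays. For Cyp3a25, r was 0.71 in each cohort (adjusted exact permutation p = 0.0491 and permutation p = 0.0222), with rho of 0.85 and 0.69, and r of 0.73 and 0.61 without the 2 farthest arrays. Its rho did not pass in the fasting cohort (adjusted exact permutation p = 0.0799) and passed in the other (adjusted permutation p = 0.0087). Cyp2c70 passed in the fasting cohort alone (r = 0.83, rho = 0.67, adjusted exact permutation p = 0.0491 and 0.308). These 3 belong to the dim members, and the fasted mouse with the highest Alb (9.94) had the highest Cyp3a25 (5.58). The 7 probe sets of the 6 called genes gave r between -0.82 and 0.46 in the fasting cohort, where Cyp2d22 at 1419040_PM_at passed in the negative direction (rho = -0.85, adjusted exact permutation p = 0.0234 and 0.0781), and between -0.49 and 0.26 in the other, where 0 of 7 passed.

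**Figure D4:**
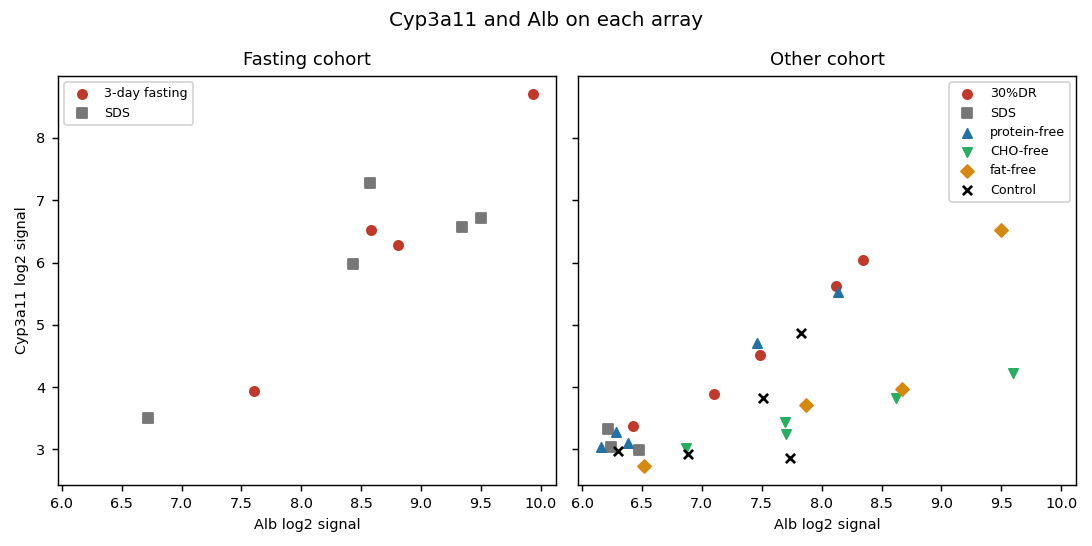
Log2 signal of Cyp3a11 (vertical axis) against that of Alb (horizontal axis), 1 point per array, in the fasting cohort (left) and the other cohort (right), with a marker for each group. Points of most groups rise together, from Cyp3a11 near 3 to 8.70 in the fasted mouse with the highest Alb of 9.94.

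Of the hepatocyte list, 4 of 5 genes were measured (Alb, Apoa1, Serpina1b and Tat). Their mean log2 signal ran from 5.77 to 7.23 in fasted mice against 5.10 to 6.53 in SDS mice, from 5.04 to 5.61 after 30%DR against 4.72 to 4.98 in SDS mice, and from 4.84 to 6.68 on the fat-free diet against 4.96 to 5.46 on the Control diet. Tat, an amino acid enzyme of hepatocytes, stayed between 2.65 and 3.44, within the nonspecific range. Serpina1b, the only gene of the list called in the 6 comparisons, rose after fasting (0.76) and on the protein-free diet (0.97). The part of liver transcripts in the Cyp3a11 values was not tested.

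The 26 genes without a probe set above the nonspecific signal hold both Cyp1a genes, the 4 Cyp2b, 7 of 8 Cyp2c, 3 of 6 Cyp2d and 5 of 6 Cyp3a genes, with Cyp2a12, Cyp2f2, Cyp2g1, Cyp2r1 and Cyp2u1. Cyp1a1, the standard target of the aryl hydrocarbon receptor, and Cyp2b10, that of the receptor CAR, had log2 fold changes between -0.29 and 0.13 over the 5 diets. Over the 29 dim probe sets, log2 fold changes ran from -0.33 to 0.81 after fasting (highest Cyp3a25), from -0.30 to 0.21 after 30%DR, from -0.25 to 0.23 on the protein-free diet and from -0.27 to 0.39 on the CHO-free diet. At such signals a small change was not detectable.

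The fat-free diet called 0 members and 0 of all probe sets (0%), with 3 members and 2089 probe sets under an unadjusted p of 0.05, and limma's treat also called 0 members. The Control diet against SDS chow called 0 members and 0.0465% of all probe sets, with 4 members under an unadjusted p of 0.05 and 0 called by treat. None of the bright members passed in that comparison. Some did not overlap between the groups, but how many of all probe sets separate in this way was not counted. Cyp2j9 lay lower in all 5 Control mice than in all 3 SDS mice (-0.47, adjusted p = 0.533, limma), as did Cyp2a5 (10.85 to 10.96 in Control mice against 11.06 to 11.27 in SDS mice, -0.28, adjusted p = 0.583, limma). Cyp2j13 lay higher (9.74 to 10.10 in Control mice against 9.33 to 9.67 in SDS mice, 0.36, adjusted p = 0.662, limma).

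The genes that serve the P450 system changed less uniformly. Of the electron partners, 4 of 6 were measured and 0 passed on any diet, with a median log2 fold change of these 4 between -0.04 and 0.02. With the probe set of lowest p for each gene, 1 of them was lower after fasting and 1 on the CHO-free diet. Cyb5a, the microsomal cytochrome b5, changed by between -0.17 and -0.05 over the 5 diets. Of the haem synthesis genes, 7 of 8 were measured, and Uros fell after fasting (-1.15) while Alas1, the rate-limiting first step, did not pass (0.51, adjusted p = 0.134, limma). Of the 4 haem breakdown genes, Blvrb, a biliverdin reductase, rose after fasting (1.25). Of the 2 epoxide hydrolases, Ephx1, the microsomal enzyme, rose after fasting (0.70) and on the CHO-free diet (0.67), and Ephx2, which opens arachidonic acid epoxides, had log2 fold changes between -0.09 and 0.10 over the 5 diets.

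Among 13 measured xenobiotic and liver-type transcription factors, 4 rose after fasting and 0 fell, namely Ppara, the fatty acid receptor (1.0), Cebpa (0.86), Cebpb (0.80) and Nr1h4, the bile acid receptor (0.63). On the protein-free diet Nr1h4 rose (0.72), on the CHO-free diet Cebpa rose (1.15) and the glucocorticoid receptor gene Nr3c1 fell (-0.62), and after 30%DR 0 of 13 passed. The medians of the list were 0.20 after fasting, -0.01 after 30%DR, 0.10 on the protein-free and 0.07 on the CHO-free diet. Of 5 measured AHR battery genes, only Nqo1, a quinone reductase, passed, and it rose after fasting (1.69), after 30%DR (0.69), on the protein-free (0.62) and on the CHO-free diet (1.12). With the probe set of lowest p for each gene, 2 of the 5 rose after fasting.

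The PAR bZIP factors, circadian regulators of P450 genes in mouse liver, were measured at 4 genes, of which only Dbp passed on each of these 4 diets. After 30%DR, Dbp (3.04), Tef (1.02) and Hlf (0.68) rose and their opponent Nfil3 (-1.57) fell. Dbp also rose after fasting (1.25), on the protein-free (1.44) and on the CHO-free diet (1.03), the last together with Hlf (0.68). Of 5 measured androgen-responsive kidney genes, 0 rose. Odc1 fell after fasting (-2.11) and 30%DR (-0.92), Gusb after fasting (-1.19), 30%DR (-0.84) and on the CHO-free diet (-0.90), and Slco1a1 after fasting (-0.68) and on the protein-free diet (-0.87).

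Several measures moved with the diets beside these results. On the CHO-free diet, the difference between the 3′ and 5′ Gapdh control probe sets, a sign of RNA integrity, was 1.85 ± 0.62 (SD, n = 5) against 0.82 ± 0.14 in Control mice (SD, n = 5), and was highest in CHO-free replicates 3 and 4 (2.45 each). Without these 2 mice, the CHO-free calls of Cyp2d26 and Cyp2j13 both remained. With this difference as a covariate, both were lost, but by different thresholds. Cyp2d26 (-0.64) stayed above the fold change minimum and missed the false discovery rate. Cyp2j13 (-0.57) missed only the fold change minimum, as its adjusted p was at most 0.0237 (limma) over the 11 settings run, this Gapdh difference among them. The same difference was 1.34 ± 0.59 in protein-free mice (SD, n = 5) and 1.27 ± 0.37 in fat-free mice (SD, n = 4), against the same Control mice, and 1.59 ± 0.50 after 30%DR (SD, n = 5) against 1.27 ± 0.41 in SDS mice (SD, n = 3). With it as a covariate, both protein-free calls and 2 of the 3 calls after 30%DR remained, and that of Cyp2d22 (0.58) after 30%DR was lost. After fasting, it was 0.93 ± 0.09 (SD, n = 4) against 0.88 ± 0.23 in SDS mice (SD, n = 5). The adipocyte marker mean, over 3 of 6 genes, ran from 7.41 to 8.15 after 30%DR against 8.15 to 9.34 in SDS mice, and with it as a covariate 2 of the 3 calls after 30%DR remained, while that of Cyp2d22 was lost (0.63, adjusted p = 0.0511, limma). Of 7 leukocyte markers, 4 fell after fasting (range of their mean 5.35 to 5.56, against 5.84 to 6.22 in SDS mice) and 2 on the CHO-free diet (5.06 to 5.34, against 5.42 to 5.97 in Control mice). Both measured intercalated cell markers rose on the CHO-free diet (8.88 to 9.34, against 7.71 to 8.50 in Control mice). Of the 4 measured proximal tubule markers, Slc5a2 fell after fasting (-0.89) and the others did not pass on any diet. The part of leukocytes, of intercalated cells and of tubule segments in the P450 values was not tested.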

How the data were processed

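The authors hybridised kidney RNA to Affymetrix HT MG-430 PM arrays and deposited log2 values made with RMA (background correction, quantile normalization, median polish; version not given in the sources used here), run on each cohort apart. These values were used as deposited for 45141 probe sets, of which 28898 have 1 gene symbol in the platform annotation, 551 several and 15692 none. All 38 member symbols matched RefSeq by gene ID. The number of arrays limits the precision. The mice of a group are separate animals, and p-values weigh mean differences against the spread between mice, pooled over the groups of a fit. Mice were housed several to a cage. Which arrays shared a cage is not given, so an effect of the cage could not be tested.

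Each cohort (9 and 27 arrays) was fitted in R 4.3.3 with limma 3.58.1 (eBayes at its defaults), without pairing, and Benjamini-Hochberg adjustment over all probe sets. A call needed a false discovery rate under 5% and 1.5-fold, the study's thresholds. Differences of effects across cohorts were fitted over all 36 arrays. In simulated data, limma recovered 89% to 98% of 2-fold and 34% to 54% of 1.5-fold changes in the 6 comparisons, with 0 to 4 false calls among 45141 probe sets. Lists used the brightest probe set per gene. Of 97 listed genes, 80 had a probe set of their own. Every member gene with a call was named, and of each list up to 4 called genes, with others chosen after their values were seen. Members, lists and alternatives were chosen with earlier results of these data known. The alternatives were a trended and robust prior, quantile normalization, subtracted array medians, the brighter part of the probe sets (above the median), a call without fold change minimum, treat at 1.2-fold, array weights, Gapdh and adipocyte covariates, 2 groups alone, joined controls and leaving out arrays. Permutation tests and sequence searches used Python 3.11.15 with numpy 2.4.6, and figures matplotlib 3.10.9.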

Additional observations from a re-analysis of the deposited data

Results flagged for a closer look

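Single mice stood apart in 7 of the 133 sets of 4 or 5 mice examined over 19 member probe sets, where chance alone gives about 1 in 20. The 19 were the 16 bright probe sets and the dim ones of Cyp2c29, Cyp2c50 and Cyp3a25, added by name. Flags of Cyp2c29 and Cyp3a25 so lie at signals within the nonspecific range. In the 30%DR group, replicate 1 had the highest Cyp2d26 (10.48, others 9.81 to 9.91) and the highest Cyp2c29 (3.59, others 2.90 to 3.07), and replicate 3 the highest Cyp3a25 (2.82, others 2.62 to 2.67). On the Control diet, replicate 5 had the highest Cyp2c29 (3.46, others 2.73 to 2.94). On the fat-free diet, replicate 4 had the lowest Cyp2a5 (10.68, others 11.03 to 11.10), and replicate 3 the highest Cyp2d22 at its dimmer probe set (4.95, others 4.78 to 4.79). On the protein-free diet, replicate 3 had the lowest Cyp2j6 at its brighter probe set (7.58, others 7.88 to 7.99).

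Effects of 2 diets differed by the direct test (limma, adjusted over all probe sets) for 8 results. In protein-free against CHO-free mice, these were Cyp2d26 (1.33, adjusted p = 5.93e-05) and Cyp2d9 (0.80, adjusted p = 0.000915). Between the fasting and the CHO-free effect, they were Cyp2d22 at its 2 probe sets (2.34, adjusted p = 5.41e-10, and 2.13, adjusted p = 2.92e-11), Cyp2d26 (1.64, adjusted p = 0.00049), Cyp2d9 (0.93, adjusted p = 0.00353) and Cyp2j9 (0.71, adjusted p = 0.0265). Between the 30%DR and the CHO-free effect, it was Cyp2d26 (1.45, adjusted p = 0.0128).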

How the results depend on the processing

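No paired analysis was possible because replicate numbers only name mice. Of the 21 single results with a call, 0 changed sign, and the call held in 161 of 177 refits with another setting and in 227 of 251 that left out 1 array. After fasting, 5 to 6 member probe sets were called when 1 array was left out, and the call of Cyp2d26 was lost with treat at 1.2-fold. After 30%DR the count of 3 became 0 with treat at 1.2-fold and 0 with the 2 groups alone (fewer arrays for the spread), 5 with the SDS and Control mice joined, and 0 to 3 without 1 array (0 without SDS replicate 2, 1 without SDS replicate 3 or 30%DR replicate 1). On the protein-free diet the count of 2 became 4 without a fold change minimum, 0 with treat, and 1 to 4 without 1 array (1 without Control replicate 4, 4 without Control replicate 3). On the CHO-free diet the count of 2 became 5 without a fold change minimum, 1 with treat and 0 with the Gapdh covariate, and was 2 to 3 without 1 array. The protein-free minus CHO-free count of 2 became 4 without a fold change minimum. For the 30%DR minus CHO-free difference the count of 1 became 0 without SDS replicate 1 or 2 (0 to 1). The causes were not tested. The fasting minus CHO-free count of 5 was 4 without CHO-free replicates 3 and 4, where Cyp2j9 was lost (adjusted p = 0.0548), and 4 to 5 without 1 array. The fat-free and Control against SDS counts were 0 under all alternatives run. Taking the probe set with the lowest p changed 6 of 48 gene list counts by over 1.5 times, among them those of the electron partners (0 to 1 lower after fasting and on the CHO-free diet) and of the AHR battery (1 to 2 higher after fasting). With 3 SDS mice in the 30%DR comparison, and dim signals for 26 genes, small changes there could not be seen.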
